A study of Mus musculus with 6 samples.

Results

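The GABA receptor genes Gabrb1, Gabrb2, Gabrg1, Gabrg3, Gabbr1 and Gabbr2 were followed across all 6 libraries of a thalamus study. These 6 genes were taken by name from the 32531 gene rows of the tables, and all 6 passed the filter on low counts. The mice were untreated adults of the Slc17a6-EGFP/Rpl10a line JX883, in which EGFP is fused to the ribosomal protein Rpl10a. The line takes its name from Slc17a6, which encodes the vesicular glutamate transporter of thalamic relay neurons. In translating ribosome affinity purification (TRAP), tagged ribosomes are pulled from homogenised tissue with anti-EGFP antibodies, and the RNA they carry is sequenced. The 3 immunopurified libraries (IP) were set against the 3 libraries of thalamic starting material (Input), both from mice that carry the tag. The labels do not say how many animals each library holds or that replicates were separate animals. The p-values therefore measure only how these libraries scatter, which may be technical. The labels also give the molecule of Input as ribosomal-bound, so that Input is whole-tissue RNA was an assumption.

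GABA-A receptors are chloride channels built from several subunits around a central pore. Beta subunits help to form the site that binds GABA, and with gamma subunits they decide where the channel sits and which drugs it answers to. GABA-B receptors are G protein-coupled receptors made of both GABBR1, which binds GABA, and GABBR2, which couples to Gi/o proteins. They open potassium channels and give the slow inhibition that thalamic relay neurons receive from the reticular nucleus.

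The IP libraries held between 52068141 and 54421395 gene reads and the Input libraries between 44081149 and 47340321, and 3 reads corresponded to between 0.0551 and 0.0681 CPM, the read count scaled to the library total. The labels were checked against markers. Slc17a6 itself had 6489, 2193 and 2200 CPM in IP and 3153, 875 and 478 CPM in Input replicates 1, 2 and 3, a log2 fold change of 1.27 that missed the threshold without a replicate block, a fit within replicate numbers (edgeR adjusted p = 0.206, and 0.000246 with it). Of 12 thalamic glutamatergic markers, 5 were higher in IP and 0 lower (edgeR adjusted p under 0.05; 6 and 0 at an unadjusted p under 0.05 and by DESeq2, 5 and 0 by limma-voom), with a summed level of 7567 to 12260 CPM in IP and 2701 to 8028 CPM in Input. All 11 oligodendrocyte markers and 11 of 12 astrocyte markers were lower in IP. The summed astrocyte level was 432 to 876 CPM in IP and 1794 to 3393 CPM in Input. Of 10 markers of GABAergic neurons 7 were lower, at 139 to 305 CPM in IP and 1071 to 1637 CPM in Input. Input replicate 3 stood apart in its markers. Its summed striatal markers reached 1259 CPM, while Input replicates 1 and 2 had 264 and 405 CPM, and its summed thalamic markers were the lowest of all. In bulk RNA, fewer cells of a type and less RNA per cell cannot be told apart.

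No member passed the test between IP and Input without the replicate block, and both GABA-B subunits passed with it. Of the 6 members, 0 were higher and 0 lower by edgeR's quasi-likelihood test (adjusted p under 0.05), and the counts were also 0 and 0 at an unadjusted p under 0.05, by DESeq2 and by limma-voom. The background was 9.60% of 16496 tested genes higher and 15.6% lower, or 25.2% in either direction. With the replicate block, a fit that compares IP and Input libraries of the same replicate number, both GABA-B subunits were higher in IP, and the other members were not called. In that fit the background was 15.9% higher and 19.2% lower. Pan-neuronal markers moved the same way, with 6 of 12 higher in IP without the block and 9 with it, a median log2 fold change of 0.58, and summed levels of 21140 to 27720 CPM in IP and 16160 to 17960 CPM in Input. Their part in the GABA-B result was not tested. The IP and Input values of all 6 members overlapped, whereas 44.9% of tested genes had groups that did not overlap. The median log2 fold change of the members was -0.02, against -0.04 over all tested genes.

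**Figure D1:**
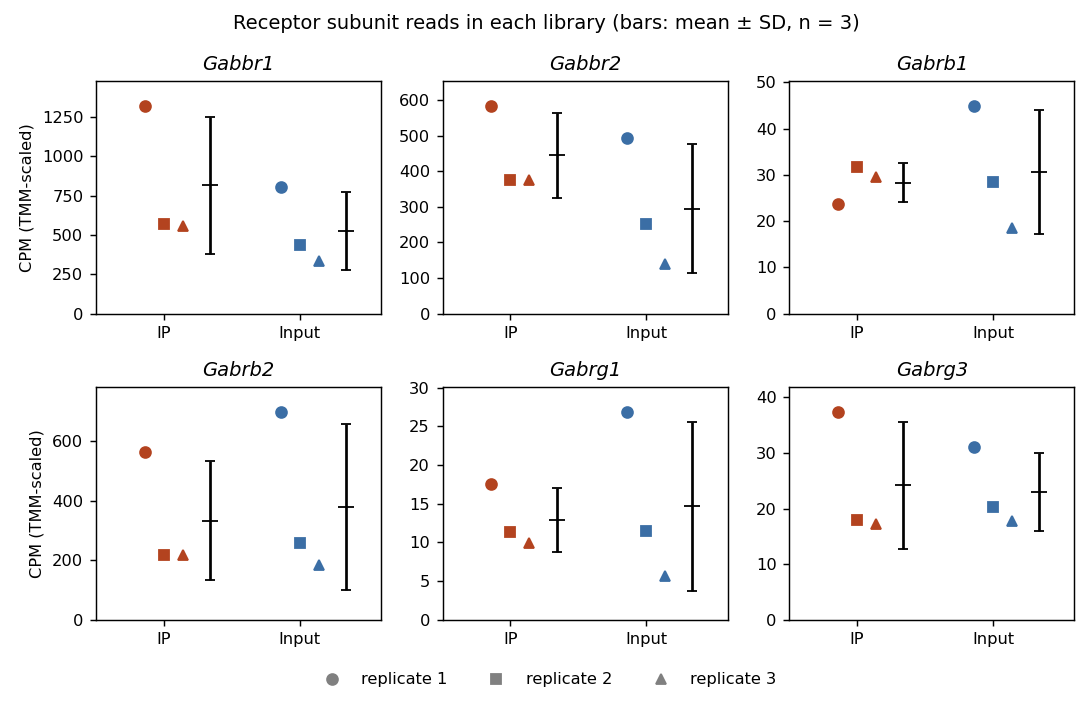
TMM-scaled CPM of the 6 members in each library, IP left and Input right, with the marker shape giving the replicate and black bars the mean ± SD (n = 3). Replicate 1 is highest in both groups for every gene but Gabrb1, and the groups overlap in all panels.

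Gabbr1, the GABA-binding GABA-B subunit, had the highest mean CPM of the members in both groups, without correction for gene length. It had 1319, 568 and 558 CPM in IP replicates 1, 2 and 3, and 807, 434 and 333 CPM in Input replicates 1, 2 and 3. Replicate 1 was the highest of each group, and within each replicate number IP was above Input. The log2 ratios of IP to Input were 0.71, 0.39 and 0.75 in replicates 1, 2 and 3. The log2 fold change was 0.64 ± 0.41 (SE), a level 1.55 times that of Input, with a 95% interval from -0.30 to 1.58, and it missed the threshold (edgeR adjusted p = 0.298). Compared within pairs by the block, it was 0.61 ± 0.13, with an interval from 0.32 to 0.91, and passed (edgeR adjusted p = 0.00505).

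Gabbr2, the G protein-coupling subunit, had 583, 377 and 376 CPM in IP replicates 1, 2 and 3. In Input it had 493, 253 and 140 CPM. IP was again above Input in 3 of 3 replicate pairs, with log2 ratios of 0.24, 0.57 and 1.42, the largest against Input replicate 3. The log2 fold change of 0.59 ± 0.41 (SE; 95% interval -0.33 to 1.52) missed the threshold (edgeR adjusted p = 0.325). The block gave 0.74 ± 0.20 (interval 0.30 to 1.19), which passed (edgeR adjusted p = 0.0157). Of all tested genes 30.3% were higher in IP in 3 of 3 pairs, as these 2 members were, and 33.7% were lower in 3 of 3 pairs, as 0 members were.

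Both GABA-B subunits also passed with the replicate block when any replicate number was left out, in fits that called many genes. Over all tested genes, 2134 of 16668 were higher and 2422 lower without replicate 1. Without replicate 2, 1549 of 16632 were higher and 2128 lower, and without replicate 3, 3026 of 17039 were higher and 3794 lower. Without replicate 1 the log2 fold change with the block was 0.57 for Gabbr1 and 1.0 for Gabbr2 (edgeR adjusted p = 0.0109 and 0.000921). Without replicate 2 it was 0.72 and 0.83 (edgeR adjusted p = 0.0157 and 0.0206). Without replicate 3, which removes the Input library that stood apart, it was 0.56 and 0.42 (edgeR adjusted p = 0.00363 and 0.0396). Without the block, Gabbr2 also passed when Input replicate 1 was left out, at 1.19 (edgeR adjusted p = 0.0299), and at 0.94 when neither library of replicate 1 was used (edgeR adjusted p = 0.0488). Those fits called 1395 of 16950 and 1440 of 16668 tested genes higher. Gabbr1 had 0.11 without IP replicate 1, 1.09 without Input replicate 1 and 0.40 without Input replicate 3, and Gabbr2 had 0.36 without IP replicate 1 and 0.27 without Input replicate 3, none of which passed (edgeR adjusted p = 0.851, 0.0748, 0.541, 0.605 and 0.594).

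**Figure D2:**
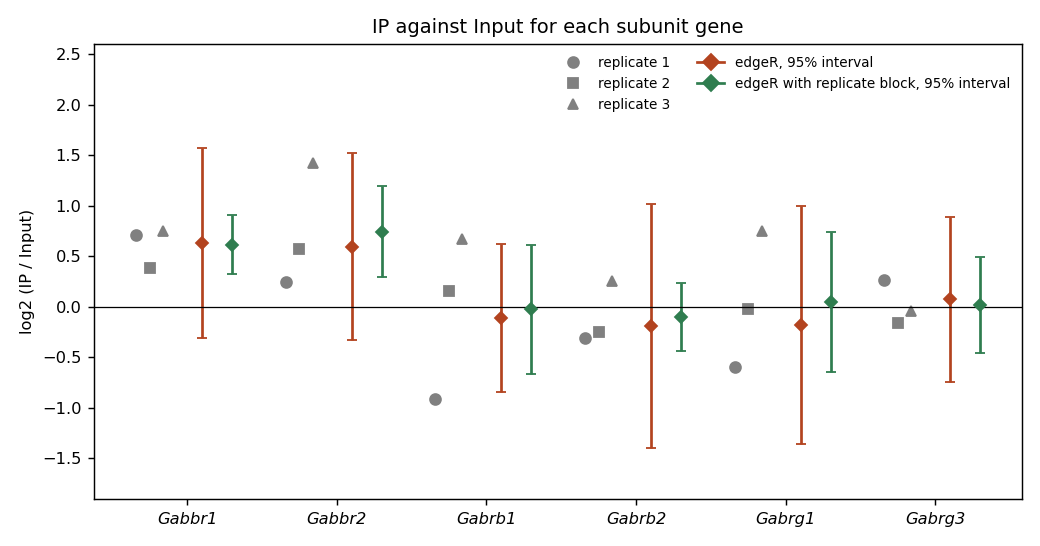
log2 of IP over Input for each gene: grey markers are the ratios within replicates 1 to 3, and diamonds the edgeR log2 fold changes without (red) and with (green) the replicate block, with 95% intervals. The intervals with the block lie above 0 for Gabbr1 (0.32 to 0.91) and Gabbr2 (0.30 to 1.19) and include 0 for the other genes.

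Gabbr1 lies on chromosome 17 from 37045966 to 37075067 on the plus strand and Gabbr2 on chromosome 4 from 46662305 to 46991873 on the minus strand (GRCm38, the assembly of mm10). Both are multi-exon genes, and counts per gene do not separate their transcripts, such as those of the GABA-B1a and GABA-B1b proteins. RefSeq start windows (GRCm38.p6) were found for all 6 members. The 250 bases before the RefSeq start are printed for the GABA-B genes, since these are the members called with the block, and for Gabrg1, the member with the lowest mean level per length. CpG dinucleotides are in capitals. The windows are chr17:37045716-37045965 (plus strand) for Gabbr1, chr4:46991715-46991964 (minus strand) for Gabbr2 and chr5:70842618-70842867 (minus strand) for Gabrg1. The RefSeq start of Gabbr2 differs from the GENCODE one, so that part of its window lies within the gene span given above.
Gabbr1: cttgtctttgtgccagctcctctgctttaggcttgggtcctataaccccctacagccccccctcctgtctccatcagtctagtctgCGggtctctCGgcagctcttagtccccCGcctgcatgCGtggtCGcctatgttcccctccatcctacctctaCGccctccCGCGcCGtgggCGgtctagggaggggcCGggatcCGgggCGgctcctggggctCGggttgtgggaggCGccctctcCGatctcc
Gabbr2: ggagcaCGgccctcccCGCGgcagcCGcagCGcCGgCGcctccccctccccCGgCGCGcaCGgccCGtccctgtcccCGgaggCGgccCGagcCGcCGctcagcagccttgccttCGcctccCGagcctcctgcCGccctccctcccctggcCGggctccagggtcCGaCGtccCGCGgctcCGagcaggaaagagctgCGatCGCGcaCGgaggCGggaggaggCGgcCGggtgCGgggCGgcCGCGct
Gabrg1: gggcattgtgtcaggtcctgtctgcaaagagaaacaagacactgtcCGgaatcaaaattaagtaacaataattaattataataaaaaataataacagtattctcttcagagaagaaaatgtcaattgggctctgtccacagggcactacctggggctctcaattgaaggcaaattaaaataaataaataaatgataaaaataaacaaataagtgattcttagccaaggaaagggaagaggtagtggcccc
The Gabbr1 window held 16 CpG and 66.0% G and C, the Gabbr2 window 37 CpG and 80.8%, and the Gabrg1 window 1 CpG and 35.6%. Windows of the other members were not printed. Those of Gabrb1 held 18 and 6 CpG (64.4% and 50.8% G and C), and that of Gabrg3 held 9 (60.4%). Those of Gabrb2 held 8, 8 and 4 (58.8%, 54% and 36.8%). Gabrb1, which was not called, thus had a window with more CpG than that of Gabbr1. Over 32851 windows of this length in the RefSeq table the medians were 6 CpG and 52.4%. The GC box GGGCGG, searched on both strands, was present in 4 of the 9 windows of members, 1 each of Gabbr1, Gabbr2, Gabrb2 and Gabrg3, and 32.7% of all windows held it. It thus did not set apart the members called with the block. The start sites used in these cells were not measured here, so the windows are a description only.

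Gabrb2, the beta2 subunit, had the widest spread of the members within IP relative to its mean. It had 563, 217 and 219 CPM in IP replicates 1, 2 and 3, and 698, 258 and 183 CPM in Input replicates 1, 2 and 3. Replicate 1 stood 2.58 times above the mean of the other IP libraries and 3.17 times above that of the other Input libraries. Its log2 fold change of -0.19 ± 0.53 (SE; 95% interval -1.40 to 1.02) missed the threshold (edgeR adjusted p = 0.831). The block gave -0.10, with a narrower interval from -0.43 to 0.23. Its direction turned without Input replicate 1 (0.60), IP replicate 2 (0.05) or IP replicate 3 (0.05).

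Gabrb1, the beta1 subunit, had 23.6, 31.6 and 29.6 CPM in IP replicates 1, 2 and 3. In Input it had 44.9, 28.4 and 18.4 CPM. It was the only member whose replicate 1 was the lowest of the IP libraries, although its replicate 1 was the highest of Input. The log2 ratios were -0.91, 0.15 and 0.67 in replicates 1, 2 and 3, so the pairs did not share a direction. The summed astrocyte markers were also highest in Input replicate 1, at 3393, 1794 and 1850 CPM in Input replicates 1, 2 and 3. So were the summed thalamic glutamatergic markers among the Input libraries, at 8028, 4908 and 2701 CPM. In IP both sums were highest in replicate 1, where Gabrb1 was lowest, but single genes weighed heavily in them. Slc17a6 had 6489 of 12260 CPM and Slc1a2 770 of 876 CPM in IP replicate 1. Marker by marker, the median ratio of IP replicate 1 to the mean of IP replicates 2 and 3 was 0.84 for thalamic markers. It was 0.87 for astrocyte markers. The part of either cell type in the Gabrb1 values was not tested. The log2 fold change of -0.11 ± 0.32 (SE; 95% interval -0.84 to 0.62) missed the threshold (edgeR adjusted p = 0.835). It turned to 0.02 when IP replicate 1 was left out and to 0.28 when Input replicate 1 was. Gabrb1 exons overlap those of Gabra4 on the opposite strand by 46 bases, and the strand setting of the counting is not given in the sources used here.

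Gabrg1, the gamma1 subunit, was the least abundant gene of the set. It had 17.6, 11.3 and 9.86 CPM in IP replicates 1, 2 and 3, and 26.8, 11.5 and 5.65 CPM in Input replicates 1, 2 and 3. The 3 Input values spanned a wider range than the 3 IP values, with Input replicate 3 at 0.295 of the level averaged over the other Input libraries. Within pairs the log2 ratios were -0.59, -0.02 and 0.75. The log2 fold change of -0.18 ± 0.52 (SE; 95% interval -1.36 to 1.0) missed the threshold (edgeR adjusted p = 0.834). Its sign turned with the replicate block, at 0.05, by limma-voom, at 0.04, and without Input replicate 1, at 0.60.

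Gabrg3, the gamma3 subunit, had 37.3, 18 and 17.2 CPM in IP replicates 1, 2 and 3. The Input values were 31.0, 20.2 and 17.8 CPM. Replicates 2 and 3 of IP lay within 1 CPM of each other and just below the matched Input libraries, while IP replicate 1 lay above its own. The log2 fold change was 0.07 ± 0.36 (SE; 95% interval -0.74 to 0.89), which was not called (edgeR adjusted p = 0.907). It was -0.02 with upper-quartile scaling, -0.37 without IP replicate 1, -0.01 without Input replicate 2 and -0.07 without Input replicate 3, so no direction is given.

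Of the 6 members, 5 were highest in replicate 1 in both IP and Input, and 20.1% of all tested genes shared that pattern. Slc17a6 did so too, but the thalamic glutamatergic markers as a list did not in IP. Marker by marker, their median ratio of replicate 1 to the mean of replicates 2 and 3 was 0.84 in IP and 1.42 in Input. Each replicate number was sequenced in a lane of its own, lane 3 for replicate 1, lane 8 for replicate 2 and lane 4 for replicate 3, so lane and replicate cannot be told apart. Replicate 1 also differed in its summary rows. Ambiguous records were 13.2%, 7.43% and 7.37% in Input replicates 1, 2 and 3, and 1.53%, 1.92% and 1.92% in IP. Records aligned at more than 1 place were 45.0%, 38.5% and 38.9% in IP, and 23.6%, 26.6% and 27.2% in Input. Their part in the replicate 1 values was not tested.

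Levels per length set the genes side by side. In CPM per kilobase of exon, IP held 105 ± 56.2 of Gabbr1, 66.6 ± 17.9 of Gabbr2 and 52.4 ± 31.3 of Gabrb2 (SD, n = 3). Gabrb1, Gabrg3 and Gabrg1 stood far lower in IP, at 2.04 ± 0.30, 2.03 ± 0.95 and 1.64 ± 0.52. The 3 highest genes overlapped with their neighbours in this order, as did the 3 lowest, while Gabrb2 and Gabrb1, between them, did not overlap. Input had 67.6 ± 32.2 of Gabbr1, 59.7 ± 43.8 of Gabrb2 and 44.2 ± 26.9 of Gabbr2. Its 3 lowest were again Gabrb1, Gabrg3 and Gabrg1, at 2.21 ± 0.97, 1.93 ± 0.59 and 1.86 ± 1.39. By exon length Gabrb2 and Gabbr2, which overlapped in both groups, changed places between IP and Input. The order of the 3 highest depended on the length used. Per kilobase of the longest coding sequence, IP had 283 ± 152 of Gabbr1, 217 ± 130 of Gabrb2 and 158 ± 42.4 of Gabbr2, and Input had 182 ± 86.8 of Gabbr1, 247 ± 181 of Gabrb2 and 105 ± 63.8 of Gabbr2 (CPM, SD, n = 3). Of tested genes with a known length, 97.8% in IP and 97.6% in Input were below Gabbr1, and 37.3% in IP and 34.6% in Input were below Gabrg1.

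**Figure D3:**
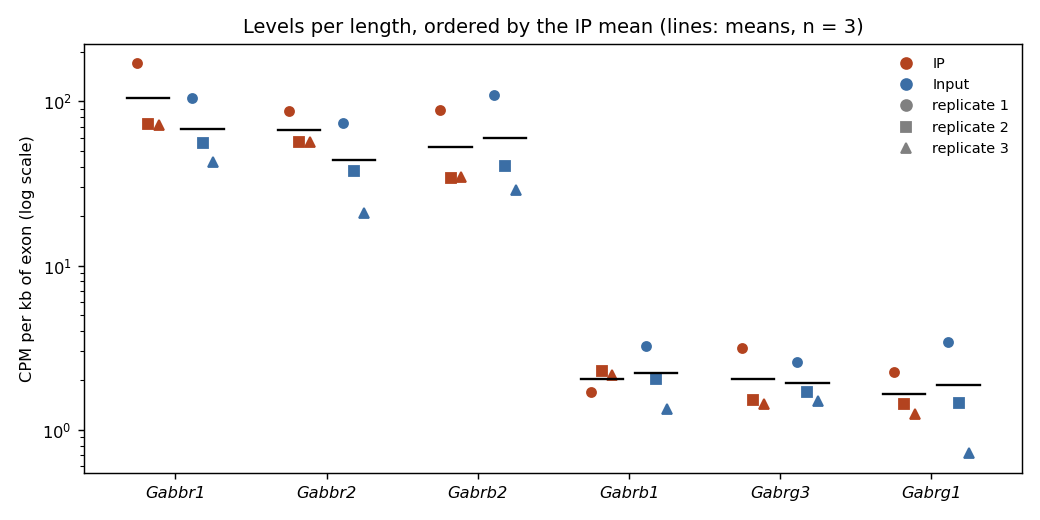
CPM per kilobase of exon (log scale) of each gene in each library, IP left and Input right of each pair, ordered by the IP mean, with black lines at the means. Gabbr1, Gabbr2 and Gabrb2 have IP means between 52.4 and 105, and Gabrb1, Gabrg1 and Gabrg3 are near 2.

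The mix within each receptor family was followed as log2 ratios of levels per length. The ratio of Gabbr1 to Gabbr2 was 0.96, 0.38 and 0.35 in IP replicates 1, 2 and 3. In Input it was 0.50, 0.56 and 1.03. Gabbr1 was above Gabbr2 in all 6 libraries, and the mean ratios of 0.56 ± 0.34 in IP and 0.70 ± 0.29 in Input did not differ beyond their spread (SD, n = 3; exact two-sided permutation p = 0.5, adjusted over 3 ratios p = 1). Without Input replicate 3 the difference turned sign, to 0.03, and without both libraries of replicate 3 it was 0.14. With 3 libraries against 3 the smallest p such a test can give is 0.1, so this design cannot pass 0.05.

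The ratio of Gabrb1 to Gabrb2 was -5.70, -3.90 and -4.01 in IP replicates 1, 2 and 3. In Input it was -5.08, -4.30 and -4.44. It was lowest in replicate 1 of both groups, where Gabrb2 was highest. The means were -4.54 ± 1.01 in IP and -4.61 ± 0.42 in Input (SD, n = 3; exact permutation p = 1, adjusted p = 1). As geometric means, Gabrb2 stood 23.2 times above Gabrb1 in IP and 24.4 times in Input. These multiples depend on the length used, and with the longest coding sequence in place of all exons the mean log2 ratio was -3.30 in IP and -3.37 in Input. The difference turned sign without IP replicate 2 (-0.25), IP replicate 3 (-0.19) or Input replicate 1 (-0.17).

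The ratio of Gabrg1 to Gabrg3 was -0.48, -0.07 and -0.20 in IP replicates 1, 2 and 3. In Input it was 0.39, -0.22 and -1.05, a far wider spread. By exon length Gabrg3 was above Gabrg1 in every IP library and below it in Input replicate 1. By coding length the ratio in Input replicate 1 was -0.20 and Gabrg3 was above Gabrg1 in all 6 libraries, with means of -0.85 in IP and -0.89 in Input. By exon length the means of -0.25 ± 0.21 in IP and -0.29 ± 0.73 in Input did not differ beyond their spread (SD, n = 3; exact permutation p = 0.9, adjusted p = 1). The difference turned sign without IP replicate 2 (-0.05) or Input replicate 3 (-0.34).

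**Figure D4:**
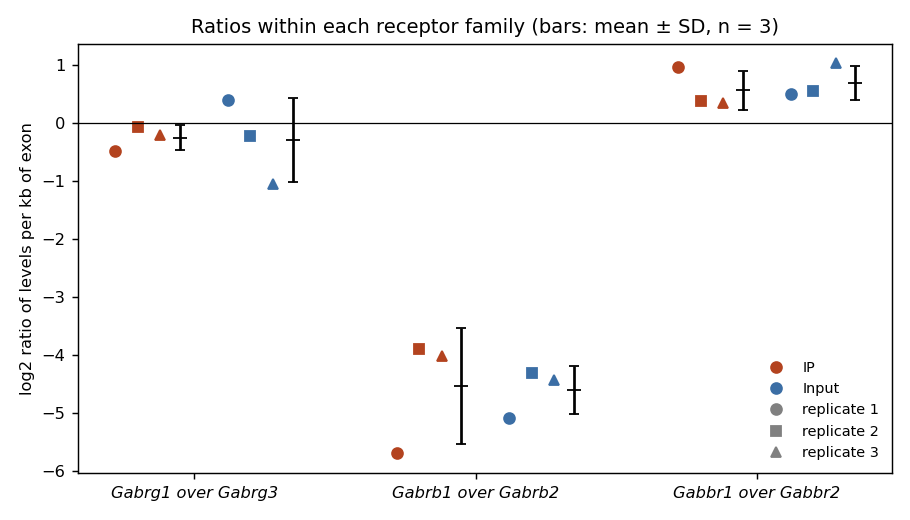
log2 ratios of levels per kilobase of exon within each receptor family in each library, IP left and Input right of each pair, with the marker shape giving the replicate and black bars the mean ± SD (n = 3). The groups overlap for all 3 ratios, and the ratio of Gabrb1 to Gabrb2 lies between -5.70 and -3.90.

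Gabrg1 and Gabrb1 lie on opposite strands of chromosome 5 with 815.5 kb between them (GRCm38). Gabrg1 runs from 70751047 to 70842617 on the minus strand and Gabrb1 from 71658113 to 72149037 on the plus strand. Gabrb2 runs from 42419757 to 42629028 on the plus strand of chromosome 11, and Gabrg3 from 56716465 to 57387188 on the minus strand of chromosome 7. Both chromosome 5 genes were among the 3 lowest members per length in each group.

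Among partners of GABA-B receptors, 3 of 10 tested genes were higher in IP and 2 lower (edgeR adjusted p under 0.05), with a median log2 fold change of -0.10 against -0.04 over all tested genes. Over all tested genes 9.60% were higher and 15.6% lower. Without Input replicate 2 the number of partners higher was 1. Ajap1, whose protein binds the sushi domains of GABA-B1a, had 132, 95.1 and 102 CPM in IP replicates 1, 2 and 3, and 63.7, 60.9 and 65.2 CPM in Input replicates 1, 2 and 3. All IP libraries were above all Input libraries. Ajap1 rose by log2 0.79 ± 0.19 (SE; edgeR adjusted p = 0.0166), but not without Input replicate 2 (edgeR adjusted p = 0.0668). Pianp, which binds the same domains and was named after its value was seen, had IP libraries at 221 ± 39.9 CPM, against 139 ± 25 CPM for Input (SD, n = 3). Its log2 fold change was 0.67 (edgeR adjusted p = 0.0472), and it passed in 1 of 6 fits that left out 1 library. Atf4, a stress-response transcription factor that binds GABA-B subunits, rose by log2 1.08 ± 0.19 (edgeR adjusted p = 0.00551). Of the KCTD proteins, which set the kinetics of GABA-B signalling, Kctd12b had 0.365, 0.132 and 0.515 CPM in IP, and 9.24, 6.53 and 3.18 CPM in Input replicates 1, 2 and 3. It fell by 4.22 on the log2 scale (SE 0.70, edgeR adjusted p = 0.00423). Gprc5b, an orphan G protein-coupled receptor gene, fell by 1.67 (SE 0.27, edgeR adjusted p = 0.00365). Kctd12 had -0.59, which missed the threshold without the block and passed with it (edgeR adjusted p = 0.0668 unblocked and 0.0172 blocked). By DESeq2 without the block, 3 partners were lower. Kctd8 averaged 9.10 CPM in IP and 9.57 CPM in Input, and Kctd16 8.96 CPM in IP and 10.3 CPM in Input, and neither was called. The astrocyte markers were lower in IP as well, at 432 to 876 CPM against 1794 to 3393 CPM in Input. So were markers of other cell types, with 11 of 11 oligodendrocyte, 9 of 10 microglia and 7 of 10 GABAergic neuron markers lower. The part of any of these cell types in the falls of Gprc5b and Kctd12b was not tested.

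Downstream of GABA-B receptors, 4 of 10 genes of GIRK channels and Gi/o proteins were higher in IP and 0 lower (0 lower also by DESeq2 and limma-voom, 1 at an unadjusted edgeR p under 0.05), with a median log2 fold change of 0.45. Over all tested genes 9.60% were higher and 15.6% lower. The number of GIRK and Gi/o genes higher was 0 without Input replicate 2, and 2 without IP replicate 2 or IP replicate 3. Kcnj5, the GIRK4 channel subunit, had 61.9, 41.9 and 27.3 CPM in IP and 19.9, 14.3 and 9.33 CPM in Input replicates 1, 2 and 3. Each IP library was above all of Input, and Kcnj5 rose by log2 1.59 ± 0.37 (SE; edgeR adjusted p = 0.0152, and 0.0530 without Input replicate 2). Gnai2, a Gi alpha subunit gene, rose by 0.82 ± 0.18 (edgeR adjusted p = 0.0135, and 0.0611 without Input replicate 2). The others called, named after their values were seen, were Rgs7, a regulator of Gi/o signalling, at 0.72 and Gnao1, the Go alpha subunit, at 0.53 (edgeR adjusted p = 0.0187 and 0.0294), each in 3 of 6 fits without 1 library. Kcnj6, the GIRK2 subunit, had -0.56 and missed the threshold (edgeR adjusted p = 0.103).

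Of 9 tested GABA-A alpha, delta and other subunit genes 1 was higher and 0 lower (0 lower also at an unadjusted edgeR p under 0.05, by DESeq2 and by limma-voom). This was Gabra5, the alpha5 subunit, with 117, 84.8 and 99.6 CPM in IP and 37.3, 29.8 and 51.0 CPM in Input replicates 1, 2 and 3. The groups did not overlap, and Gabra5 rose by log2 1.35 ± 0.24 (SE; edgeR adjusted p = 0.00583). Gabra4, the alpha4 subunit, was called as well with the block (log2 0.67, edgeR adjusted p = 0.00765), chosen here after its value was seen. Without Input replicate 1, 2 genes of this list were called higher. The median log2 fold change of the list was 0.16. Over all tested genes 9.60% were higher and 15.6% lower without the block.

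Among genes for anchoring, assembly and traffic of GABA-A receptors, 3 of 21 were higher and 2 lower, with 8 higher and 3 lower with the replicate block, and a median log2 fold change of 0.23. Over all tested genes 9.60% were higher and 15.6% lower, and 15.9% and 19.2% with the block. The number of anchoring genes lower was 0 without IP replicate 2 or IP replicate 3, and 1 without IP replicate 1, Input replicate 1 or Input replicate 3. Gabarap, whose protein links GABA-A receptors to microtubules, had 162, 216 and 208 CPM in IP and 73.6, 104 and 105 CPM in Input replicates 1, 2 and 3. It rose by log2 1.05 ± 0.21 (SE; edgeR adjusted p = 0.00840). Its relative Gabarapl1, named after its value was seen, rose by 0.85 (edgeR adjusted p = 0.00625). Hap1, a huntingtin partner that recycles receptors to the surface, rose by 1.0 ± 0.27 (edgeR adjusted p = 0.0272), but not without IP replicate 2, IP replicate 3 or Input replicate 3 (edgeR adjusted p = 0.0942, 0.0668 and 0.0583). Shisa7, an auxiliary subunit of GABA-A receptors, fell by 1.27 (SE 0.32, edgeR adjusted p = 0.0211). Its Input values were 56.1, 71.0 and 119 CPM in replicates 1, 2 and 3, highest in the library that stood apart, and without IP replicate 2 or 3 its adjusted p was 0.0681 or 0.0742. Mkln1, muskelin, which carries receptors inside the cell, fell by 0.71 (edgeR adjusted p = 0.0493), and of 6 fits without 1 library it passed in 1. Gphn, the gephyrin scaffold, had IP libraries at 43.4 ± 5.91 CPM, against 53.3 ± 5.33 CPM for Input (SD, n = 3), with a log2 fold change of -0.30 that was not called (edgeR adjusted p = 0.305).

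**Figure D5:**
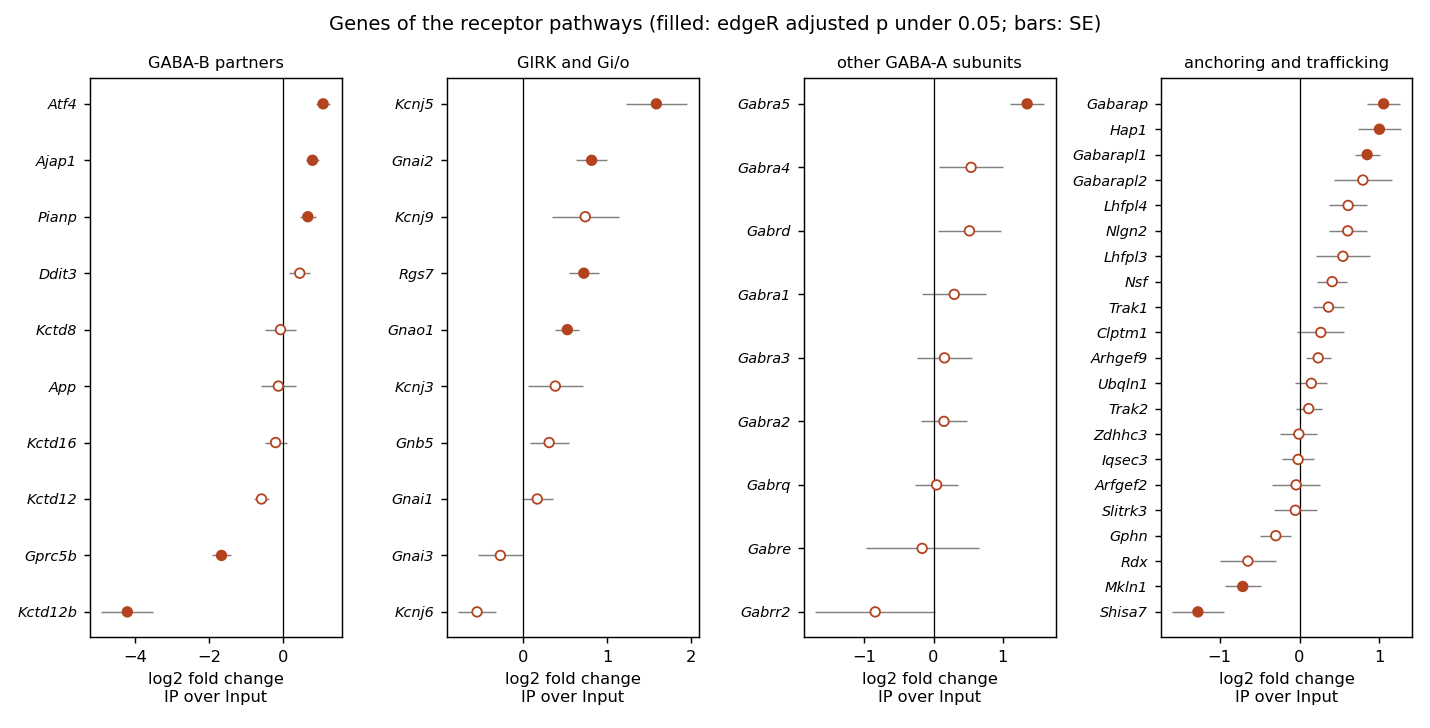
log2 fold changes of IP over Input with SE for the tested genes of the 4 lists, filled where the edgeR adjusted p was under 0.05. The axes differ between panels. Kctd12b lies lowest at -4.22 and Kcnj5 highest at 1.59.

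The genes whose levels ran most like each member were ranked by Euclidean distance of log2(CPM + 0.5), centred on the mean over the 6 libraries, among the 10297 genes that averaged 5 CPM or more. For Gabbr1 the nearest were Myadm, Adgrl1 and Saraf, at distances of 0.199, 0.199 and 0.203. For Gabbr2 they were Kitl, Ntng1 and Scube2 at 0.242, 0.247 and 0.303, of which Ntng1 encodes netrin-G1, a marker of thalamic axons. Gabrb1 ran with Ndufaf1, Rorb and Eif3m at 0.258, 0.289 and 0.305, and Rorb is a nuclear receptor gene of sensory thalamic nuclei. Gabrb2 ran with Atp2a2, Lgr5 and Adgrf5 at 0.212, 0.284 and 0.317. For Gabrg1 the nearest were Tmem56, Atrnl1 and Tmem132d at 0.259, 0.271 and 0.284, and for Gabrg3 Flrt1, Tm9sf4 and Aasdhppt at 0.126, 0.162 and 0.170. Among these nearest genes only Ntng1 was on a marker list used here, and no cell type is read from them. The median distance over all candidates lay between 1.38 and 2.06, and the likeness rests on 6 libraries that share 3 replicate numbers.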

How the data were processed

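For each of the 6 libraries the authors deposited raw read counts by gene, whole and not normalized. The submitters' processing notes name STAR 2.0.0e, HTSeq and the build mm10. The gene annotation and the strand setting of the counting were not given in the sources used here. Summary rows and a row named unknown (at most 4 reads) were left out. On average 40.8% of records in IP and 25.8% in Input aligned at more than 1 place.

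Groups and replicate numbers came from the titles. Genes were filtered with filterByExpr, scaled with TMM and compared by the two-sided quasi-likelihood test of edgeR 4.0.16 (R 4.3.3) on group, with Benjamini-Hochberg adjustment over 16496 genes and a threshold of 0.05. SE and 95% intervals are of the log2 fold change, IP over Input. Lengths and positions are from GENCODE M21 (GRCm38). Same-numbered libraries deviated together (r = 0.271, 0.113 and 0.141, all over 0.1), so the numbers from the titles were taken to pair them. Same-numbered libraries also shared a lane. The main test did not use this pairing, and the replicate block did. No 2 libraries of a group agreed within sampling noise. On simulated counts for 16143 tested genes of IP against Input, the test called 0 of 79 genes given a change of log2 0.5, 2 of 58 given log2 1 and 34 of 61 given log2 2, and made 2 false calls. The simulation changed few genes and held no replicate effect, while 25.2% of tested genes were called in the data. The adjusted threshold was therefore stricter in the simulation, and its shares do not carry over to the real test.

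Members, lists and tests were chosen with earlier results of these data known. Some items of the planned comparisons, shares within the subunit families among them, are not reported here. The ratios of Gabrb1 to Gabrb2 and of Gabrg1 to Gabrg3 were chosen after their values were seen. Beyond the 6 members, named genes are, from each list, up to 2 called members each way by size of change, and for each member the 3 genes nearest in pattern. Outside this rule, Pianp, Rgs7, Gnao1, Gabarapl1, Gabra4, Kctd12, Kctd8, Kctd16, Kcnj6 and Gphn were named after their values were seen. Markers are given as sums, as medians over genes where stated, and as single genes for Slc17a6 and Slc1a2. Alternatives used DESeq2 1.42.0 and limma-voom (limma 3.58.1), other scaling and filters, the replicate block and leaving out libraries, and DESeq2 with the block and leaving out replicate numbers with the block were added after seeing the data.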

Additional observations from a re-analysis of the deposited data

How the results depend on the processing

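With the replicate block the genes higher in IP numbered 2624, and 3025 by DESeq2 with the block, against 1583 without it. With 1 library or replicate number left out, higher genes ranged from 83 to 1640 and lower genes from 651 to 2598, both fewest without replicate 2, and with the block and without replicate 3 there were 3026 higher. Gabbr1 and Gabbr2 were called with the block at log2 0.61 and 0.74, and by DESeq2 with the block at 0.61 and 0.74, and with libraries left out they ranged from 0.11 to 1.09 and from 0.27 to 1.19. With the block and without replicate 1, 2 or 3 they were 0.57, 0.72 and 0.56 for Gabbr1 and 1.0, 0.83 and 0.42 for Gabbr2. The block changed no call among the other 4 members. Gabrg1 changed sign to 0.041 by limma-voom, 0.051 with the block, 0.045 by DESeq2 with the block, and 0.39 and 0.084 with the block and without replicate 1 or 2. Gabrg3 changed to -0.025 with upper-quartile scaling and -0.10 with the block and without replicate 1, where Gabrb1 had 0.42 and Gabrb2 0.0090. None of these passed. With libraries left out, log2 fold changes ranged from -0.40 to 0.39 for Gabrb1, -0.79 to 0.60 for Gabrb2, -0.56 to 0.60 for Gabrg1 and -0.37 to 0.35 for Gabrg3.

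With libraries left out, the IP minus Input difference in log2 ratio ranged from -0.43 to 0.14 for Gabbr1 to Gabbr2, -0.25 to 0.65 for Gabrb1 to Gabrb2 and -0.36 to 0.50 for Gabrg1 to Gabrg3. Another gene length shifts both groups alike and leaves these differences as they are. Pairing by replicate number cannot move these mean differences, which are -0.13, 0.07 and 0.04 by arithmetic either way. It changes only the test (exact sign-flip permutation p = 0.75, 1 and 1, where 3 pairs can give no less than 0.25). Genes called higher among anchoring genes numbered 3, and 8 with the block and 9 by DESeq2 with it, and among other GABA-A subunits 1, and 2 and 3. Among anchoring genes 2 were lower, and 1 with no filter, where Mkln1 had an edgeR adjusted p of 0.0514. Among GIRK and Gi/o genes 0 were lower, and 1 by DESeq2 with the block. Hap1 did not pass with library totals (edgeR adjusted p = 0.0502). The causes of these changes were not tested. What depth limits was not compared with the scatter between libraries.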

Other observations

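Over the 6 libraries, Gabbr1 and Gabbr2, which lie on different chromosomes, were each other's nearest member in pattern, at rank 242 of the genes around Gabbr1 and rank 154 of those around Gabbr2 (distance 0.656). Gabrb2 and Gabrg1 were likewise each other's nearest member, at rank 86 of the genes around Gabrb2 and rank 69 of those around Gabrg1 (distance 0.672). The member nearest to Gabrb1 was Gabrg1, which also lies on chromosome 5, but only at rank 2599 of 10297 candidate genes (distance 1.09). These ranks describe 6 libraries and were noticed after the values were seen.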
